A study of Oryza sativa with 4 samples.

Results

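Nucleosomes gained de novo in *oschz1-1* were defined as nucleosomes that the deposited map listed in *oschz1-1* and not in wild type (WT), at places where no WT nucleosome was centred nearby. The summit of a nucleosome is the position of its highest occupancy. A member had a summit in *oschz1-1*, none in WT in the same entry of the map, and no WT summit of any entry within 150 bp. This rule chose 111912 of the 1690300 nucleosomes listed, all on the 12 nuclear chromosomes of rice (*Oryza sativa*). They made up 7.94% of the 1409388 *oschz1-1* summits on these chromosomes.

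Chromatin of 30-day-old seedlings was compared between *oschz1-1* and WT, with 2 MNase-seq libraries per genotype. The *oschz1-1* allele is a small deletion made with CRISPR/Cas9 in *OsChz1* that introduces a premature stop codon, and the mutant plants were homozygous and free of the transgene. The controls were plants of wild-type genotype, which the titles name by NIP. The day length was 14 h, at 30 °C, and the nights of 10 h were kept at 28 °C, for all seedlings. Both libraries of a genotype had been merged in the deposited map, so that each nucleosome had 1 value per genotype. A single mutant line was profiled, and a difference between the plants used cannot be told apart from the effect of the allele.

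In the nucleosome, DNA is wrapped around an octamer of the histones H2A, H2B, H3 and H4, and neighbouring nucleosomes are separated by linker DNA. Micrococcal nuclease (MNase) cuts the linker, and the fragments left by the digestion show where nucleosomes sat and how often a position was occupied. Histone chaperones of the Chz1 family, first described in budding yeast, bind H2A-H2B dimers and dimers with the variant H2A.Z, and hand them over for assembly into chromatin. Nucleosomes in regular arrays are spaced evenly, whereas active promoters and enhancers often hold stretches from which nucleosomes are depleted.

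Part of the contrast was set aside before counting. The WT map had a value of 0 over segments of chromosomes 10 and 11 with signal in *oschz1-1*, and 1816 nucleosomes of these chromosomes (372 on chromosome 10 and 1444 on chromosome 11) were left out for that reason. As the members were chosen by the comparison of the maps, the occupancy, the width of the gap and the lack of a WT summit are given as descriptions, without a test. The spread between replicates could not be computed from merged values, and the depth of the libraries is unknown. For a level of comparison, the same rule was applied with the genotypes exchanged, which gave the nucleosomes lost from WT.

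Gained nucleosomes were somewhat more numerous than lost ones. There were 111912 gained and 102369 lost, a ratio of 1.09 and an excess of 9543, of which 1711 fell on chromosomes 10 and 11. The lost nucleosomes made up 7.34% of the 1395431 WT summits. The gained set held 38.2% of the 293277 nucleosomes with a summit in *oschz1-1* alone, and the lost set held 36.6% of the 279320 with a summit in WT alone. At another 179549 nucleosomes of *oschz1-1* alone, a WT summit lay within 150 bp. They are called the other *oschz1-1*-only nucleosomes here. No error can be set on the excess, because 1 merged map was compared per genotype.

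Gained nucleosomes were weak in *oschz1-1* and seldom empty in WT. Occupancy is the signal at the summit on the scale of the authors' map. In *oschz1-1* it ran from 6.10 to 50.04 over the members, with a median of 13.5 and quartiles of 11.5 and 16.1. In WT, the value at the same nucleosomes ran from 0 to 37.5, with a median of 6.54 and quartiles of 5.002 and 8.02. The ranges between the quartiles of both distributions were thus apart, while the whole ranges overlapped. This separation was largely set in advance, because summits with a value below 10 were seldom listed in either map. For scale, nucleosomes with a summit in both maps had a median of 17.1 in *oschz1-1* and 17.2 in WT. The other *oschz1-1*-only nucleosomes lay between, at 14.4 in *oschz1-1* and 8.10 in WT.

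Few members combined a strong nucleosome in *oschz1-1* with no signal in WT. The WT value was 0 at 158 members (0.141%), below 2 at 2602 and below 4 at 15794 (14.1%). It was from 4 to below 8 at 67524 (60.3%) and from 8 to below 10 at 26736 (23.9%). Listed summits seldom had a value below 10, as was the case for 0.105% of those in *oschz1-1* and 0.0912% of those in WT, so that a value of 10 acted as a floor of the map. Signal below this floor stood at 98.3% of the members in WT, and 32.0% of the members had an *oschz1-1* value below 12. An *oschz1-1* value below 12 stood beside a WT value from 8 to below 10 at 7026 members (6.28%). At the other end, 572 members (0.511%) combined an *oschz1-1* value of at least 20 with a WT value below 4.

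**Figure D1:**
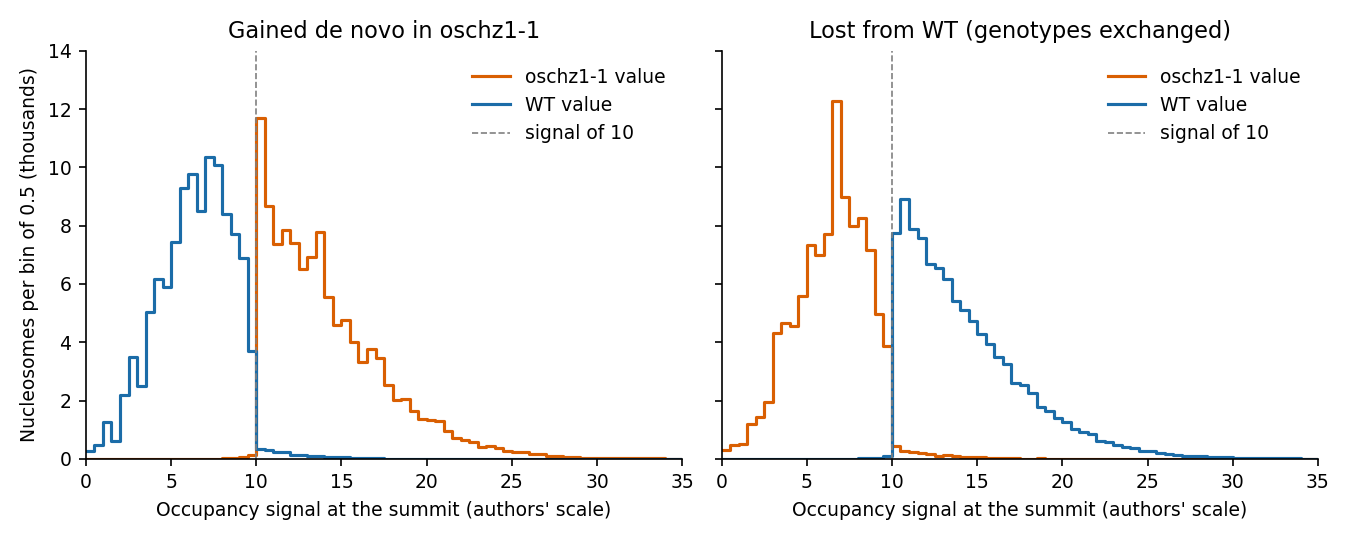
Distribution of occupancy at the summit for nucleosomes gained de novo in *oschz1-1* (left) and lost from WT (right). The x-axis is the signal on the authors' scale and the y-axis the number of nucleosomes per bin of 0.5, divided by 1000, with *oschz1-1* values in orange and WT values in blue. In the map with a summit, 232 gained and 172 lost nucleosomes had a signal below 10 (dashed line), against 98.3% of the gained and 98.2% of the lost ones in the map without one.

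The lost nucleosomes had nearly the same values with the genotypes exchanged. Their median was 6.55 in *oschz1-1* and 13.5 in WT, 23.7% had a value from 8 to below 10 in the map without a summit, and 8.08% had a value of at least 20 in the map with one, against 7.51% of the gained nucleosomes. With a pseudocount of 1 on both values, the median log2 ratio of *oschz1-1* over WT was 1.004 for gained nucleosomes, with quartiles of 0.69 and 1.37, and -1.01 for lost ones. The pseudocount makes the ratio of low values smaller than it was.

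WT signal at or above the floor was found at 1858 members (1.66%), although no WT summit was listed within 150 bp of them. At 281 of these and other members the WT value was even higher than the *oschz1-1* value. An example, chosen after its values were seen, lay on chromosome 12 at 13889481, with a value of 18.1 in *oschz1-1* and 23.6 in WT. WT summits stood 190 and 160 bp away from it. By the deposited values those 281 members were gained as a summit and not as signal.

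By the FDR deposited by the authors for the summit value, 32994 gained nucleosomes (29.5%) were increased in *oschz1-1* at less than 0.05, beside 5.17% of all listed nucleosomes of the nuclear chromosomes. At less than 0.01 the count was 9783 (8.74%, beside 1.41%), and at less than 0.001 it was 1052 (0.940%, beside 0.214%). A log2 ratio of at least 1 was reached by 56322 (50.3%, beside 8.02%). Of the lost nucleosomes, 30484 (29.8%) were decreased at an FDR of less than 0.05, beside 5.07%, and 52148 (50.9%) had a log2 ratio of at most -1, beside 7.79%. The rule chose the members on this very contrast, and nothing is read from the distance to the background. Most members did not pass the authors' FDR of 0.05.

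The gaps filled in *oschz1-1* were mostly as wide as 1 to 3 missing nucleosomes. The gap is the distance between the WT summits on either side of the member, and by the rule it exceeds 300 bp. Its median was 550 bp, with quartiles of 420 and 745 bp, over the 111909 members with a WT summit on both sides. Neighbouring *oschz1-1* summits were a median of 200 bp apart over the whole map, so that a single nucleosome missing from an array of that spacing leaves 400 bp between its neighbours. Gaps of at most 450 bp held 31.9% of the members, and gaps of at most 1000 bp held 87.7%. Only 3894 members lay in gaps of over 2000 bp and 723 in gaps of over 5000 bp, of which 98 were on chromosome 11; these counts include 3 members at the ends of the map with no WT summit on one side.

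Seen from the gaps, 94541 of the 312413 WT gaps of over 300 bp (30.3%) held at least 1 gained nucleosome. A further 23.3% held only an *oschz1-1*-only summit within 150 bp of a flank, and 46.4% held no *oschz1-1*-only summit. In the mirror comparison, 88590 of 313860 *oschz1-1* gaps (28.2%) held a lost nucleosome. The share of gaps filled was 7.45% at 300 to 350 bp, where hardly any position satisfies the rule, and 33.1% at 400 to 450 bp. It was highest at 800 to 1000 bp, with 56.5%, and was 42.0% at 2000 to 5000 bp.

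Narrow gaps were filled equally often in both directions, and wide gaps more often in *oschz1-1*. At 350 to 400 bp, 23.3% of WT gaps held a gained nucleosome and 23.3% of *oschz1-1* gaps a lost one. At 600 to 800 bp, the shares were 55.7% for gained and 51.9% for lost nucleosomes. They were 49.6% for gained and 40.9% for lost at 1000 to 2000 bp, and 44.1% for gained and 35.6% for lost above 5000 bp. Counted over nucleosomes, the ratio of gained to lost was 0.981 in gaps of 300 to 400 bp, 1.10 at 500 to 600 bp, 1.21 at 800 to 1000 bp, and 1.46 at 2000 to 5000 bp. In gaps of 300 to 400 bp there were 22025 gained and 22442 lost nucleosomes, and at 400 to 500 bp 24504 gained and 24264 lost, so that the excess lay in gaps wider than 500 bp. Whether it exceeds the difference between libraries of 1 genotype was not tested, as the libraries had been merged.

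**Figure D2:**
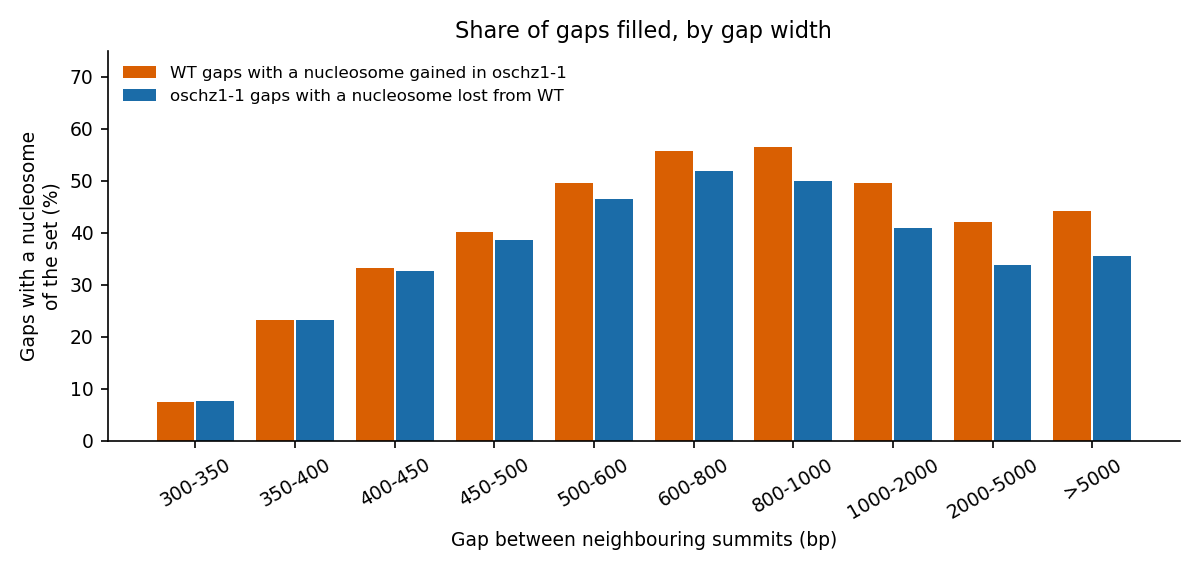
Share of gaps between neighbouring summits that held a nucleosome of the other map, by width of the gap in bp. Orange bars give the percentage of WT gaps with a nucleosome gained in *oschz1-1* and blue bars that of *oschz1-1* gaps with a nucleosome lost from WT; the bars are alike up to 400 bp (23.3% and 23.3% at 350 to 400 bp) and part above 500 bp (56.5% and 49.9% at 800 to 1000 bp).

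Most filled gaps held 1 member. Other *oschz1-1*-only summits, within 150 bp of a flank of the same gap, are not part of these counts. A single member stood in 80161 filled gaps (84.8%), whose median width was 475 bp. There were 2 members in 11943 gaps (12.6%, median width 710 bp), 3 in 2000 gaps (950 bp) and 4 in 346 gaps. Larger numbers were rare, with 5 members in 72 gaps, 6 in 16, 7 in 2 and 8 in 1. In gaps with 2 members, these were a median of 182 bp apart, with quartiles of 140 and 268 bp and a smallest distance of 100 bp. Relative to the whole *oschz1-1* map, the summit nearest to a member was a median of 180 bp away, and the summits on either side were a median of 225 bp away.

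Gained nucleosomes stood near the middle of narrow gaps and, in gaps of 560 to 600 bp, mostly 160 to 220 bp from a flank. In gaps of 350 to 400 bp the member lay a median of 15 bp from the middle, and in gaps of 400 to 450 bp a median of 27.5 bp. In gaps of 380 to 420 bp, 74.4% of 15114 members were within 30 bp of the middle, and 95.7% were 160 to 220 bp from a flank. At this width the 150 bp of the rule leaves little other room, so both shares were largely set in advance. In gaps of 560 to 600 bp members were fewer near the middle than nearer the flanks. Per bin of 10 bp from the left flank, 217 members stood in the bin from 290 bp. The bins from 200 and 380 bp held 422 and 420. Of 9216 members, 17.3% were within 30 bp of the middle, 57.7% were 160 to 220 bp from a flank, and 20.5% of the filled gaps held at least 2 members. Both shares depend on the room left by the rule, and the level for an even spread was not computed. Where a gap of any width held 2 members, these were at least 100 bp apart. How far this spacing lowers the count in the middle was not tested.

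In gaps of 740 to 780 bp, members gathered near either flank and again in the middle. Of 3980 members, 34.7% were 160 to 220 bp from a flank and 15.8% were within 30 bp of the middle, and 35.2% of the filled gaps held at least 2 members. Neither side was preferred, as the median signed distance from the middle was 0 bp at 600 to 800 bp. The rule itself keeps members at least 151 bp away from a flank, and in the narrowest gaps it leaves little room other than the middle. Lost nucleosomes had similar medians, with 15 bp at 350 to 400 bp, 25 bp at 400 to 450 bp and 70 bp at 500 to 600 bp, the last of which was also 70 bp for the gained ones.

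**Figure D3:**
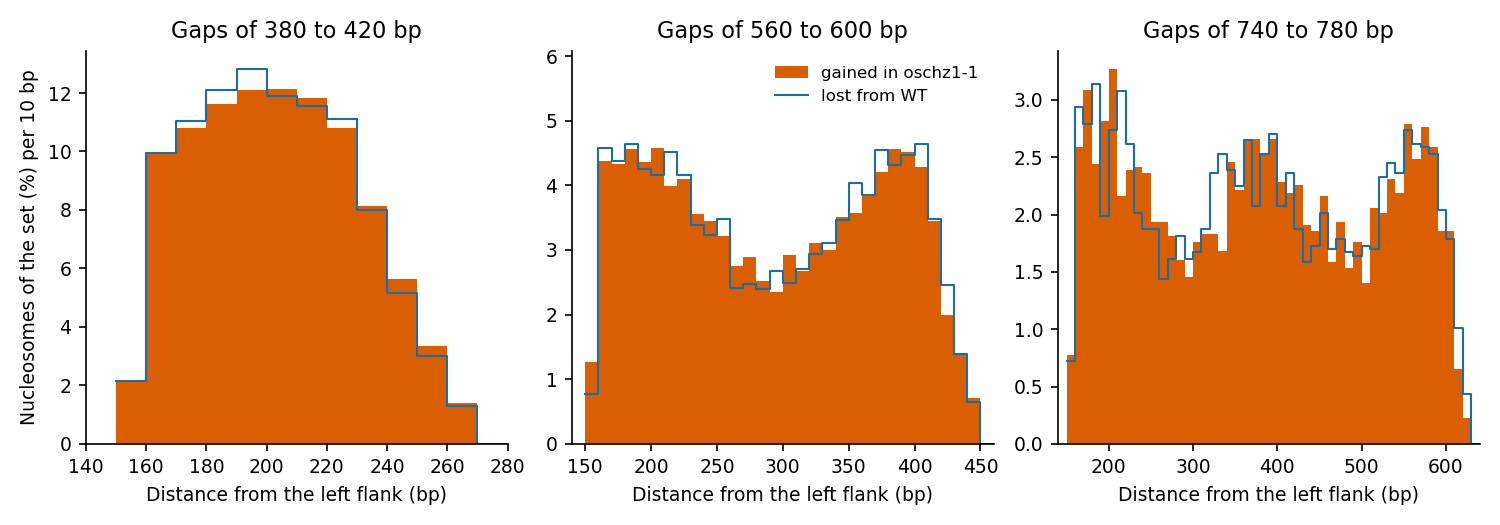
Position of nucleosomes within gaps of 380 to 420 bp, 560 to 600 bp and 740 to 780 bp. The x-axis is the distance from the left flank in bp and the y-axis the percentage of the nucleosomes of the set per 10 bp, for nucleosomes gained in *oschz1-1* (orange bars) and lost from WT (blue line). The number of maxima goes from 1 to 2 to 3 as the gap widens, and both sets follow the same outline.

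The nucleosomes that flank a filled gap changed much like those that flank a gap with no member. A flank is the WT nucleosome at the edge of the gap, and 19.5% of the flanks of filled gaps had no *oschz1-1* summit in the same entry, against 19.4% of the flanks of gaps with no member. Over all WT summits this share was 20.0%. Where the flank had a summit in both maps, the *oschz1-1* summit was a median of 20 bp away from the WT summit in either class. It was displaced away from the gap in 41.6% of the flanks of filled gaps, against 43.1% in gaps with no member. It was displaced towards the gap in 46.5%, against 44.9%. Flanks with a summit in both maps had a median occupancy of 16.4 in *oschz1-1* and 16.5 in WT at filled gaps. At other gaps they had 16.6 in *oschz1-1* and 16.7 in WT. At flanks with a summit in both maps, occupancy was thus alike in both genotypes, and outward shifts were no more frequent at filled gaps.

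Within classes of occupancy, gained nucleosomes had a lower median fuzziness than other nucleosomes of the same map. Fuzziness scores how widely the fragments of a nucleosome are scattered in position, and a low score means a well-defined position. The median fuzziness of members in *oschz1-1* was 52.0, with quartiles of 47.9 and 55.3. It was 56.1 for the other *oschz1-1*-only nucleosomes and 53.0 for nucleosomes with a summit in both maps. Weak nucleosomes are fuzzier in this map, so the scores were compared within 6 classes of *oschz1-1* value. Members were below the shared nucleosomes in each class, by 2.53 at values below 11, 2.24 at 12 to 14 and 1.496 at 20 or more. They were below the other *oschz1-1*-only nucleosomes by 4.30 to 4.84. The classes were not matched on the distance to the nearest WT summit, which by the rule exceeds 150 bp in members. Fuzziness declined with that distance, so the difference was partly set by the rule. Members in gaps of 300 to 400 bp had a median of 53.4 in *oschz1-1*, against 53.0 for shared nucleosomes of all values. In WT, the score at the positions of all members was higher, with a median of 57.0 and quartiles of 52.0 and 60.8. The low score was not particular to gained nucleosomes. At values below 11 it was 53.2 for gained ones in *oschz1-1* and 53.2 for lost ones in WT. At values of 16 to 20 it was 50.9 for gained ones in *oschz1-1* and 50.9 for lost ones in WT.

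In single nucleosomes, fuzziness was lower in *oschz1-1* than in WT at 87850 members (78.5%), and lower by more than 5 at 53854 (48.1%). The mirror set gave the same picture, as 80.3% of lost nucleosomes were less fuzzy in the map that listed them, with medians of 57.3 in *oschz1-1* and 51.9 in WT. The lower score therefore went with the map in which the summit was listed, in both genotypes. The score comes from the map on which the rule chose the members, and its differences are given without a test.

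Fuzziness declined with the distance to the nearest WT summit. Its median in *oschz1-1* was 57.8 at 50 to 80 bp, 54.2 at 140 to 150 bp, 53.6 at 150 to 160 bp, 52.0 at 200 to 250 bp and 41.2 beyond 1000 bp. The WT score at the same positions was 59.95, 60.5, 59.5, 57.0 and 42.0 in the same order, so that both maps had nearly equal scores in the emptiest surroundings. By the width of the gap, the median in *oschz1-1* was 53.4 in gaps of 300 to 400 bp, 50.8 at 800 to 1000 bp and 42.2 above 5000 bp. Occupancy changed less along the same axis, at 13.9, 13.1 and 12.7 in *oschz1-1* and 7.02, 6.42 and 6.37 in WT.

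**Figure D4:**
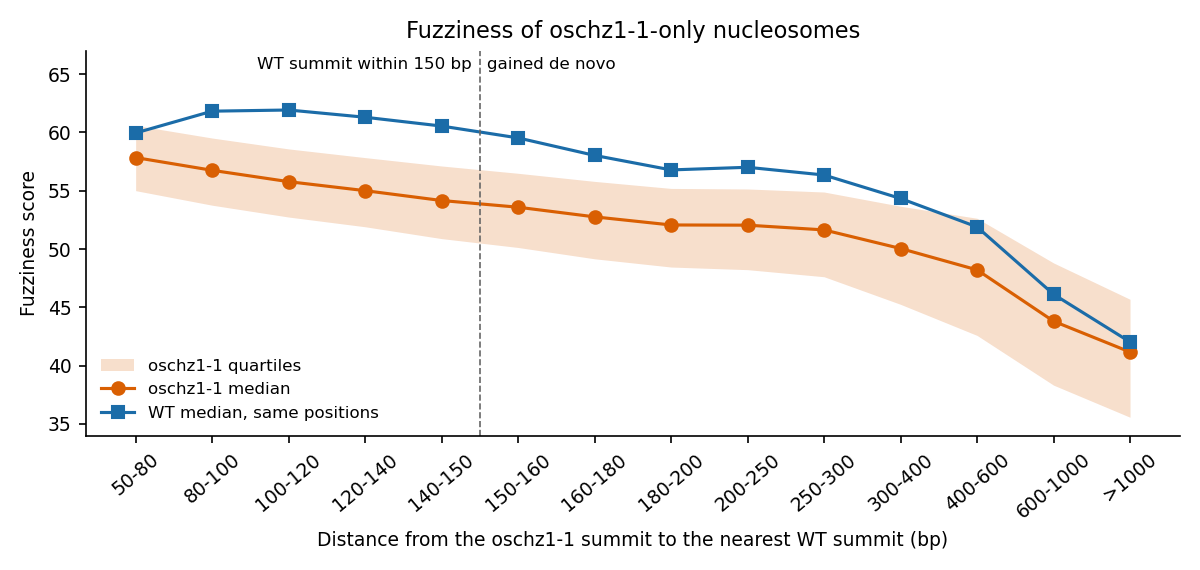
Fuzziness of nucleosomes with a summit in *oschz1-1* alone, by distance in bp from that summit to the nearest WT summit. Orange circles give the *oschz1-1* median with its quartiles (shaded), blue squares the WT median at the same positions, and the dashed line the 150 bp of the rule; the *oschz1-1* median is 54.2 just left of the line and 53.6 just right of it, and reaches 41.2 beyond 1000 bp.

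Values on both sides of the limit of 150 bp were close. Just inside the rule, at 151 to 160 bp, 15576 members had a mean occupancy of 14.6 ± 3.81 in *oschz1-1* and 6.83 ± 2.44 in WT and a fuzziness in *oschz1-1* of 53.1 ± 4.997 (SD over nucleosomes). Just outside, at 141 to 150 bp, 16772 nucleosomes had 14.6 ± 3.78 in *oschz1-1* and 7.02 ± 2.71 in WT, and a fuzziness of 53.8 ± 4.77.

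Gained nucleosomes were spread over all chromosomes at a nearly even density. Over 373 Mb they amounted to 299.9 per Mb, or 1 per 3.33 kb, against 274.3 lost nucleosomes per Mb. Chromosome 1 had the highest density, with 313.9 per Mb, and chromosome 4 the lowest, with 284.2. Relative to the nucleosomes present, there were 82.3 per 1000 *oschz1-1* summits on chromosome 1 and 75.8 on chromosome 7, the highest and lowest values. Gained nucleosomes outnumbered lost ones on each of the 12 chromosomes, with ratios from 1.06 on chromosome 9 to 1.14 on chromosome 11. The median occupancy of members lay between 13.3 and 13.5 in *oschz1-1* and between 6.54 and 6.65 in WT, the median fuzziness in *oschz1-1* between 51.7 and 52.2, and the median gap between 530 and 560 bp on the 12 chromosomes.

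**Figure D5:**
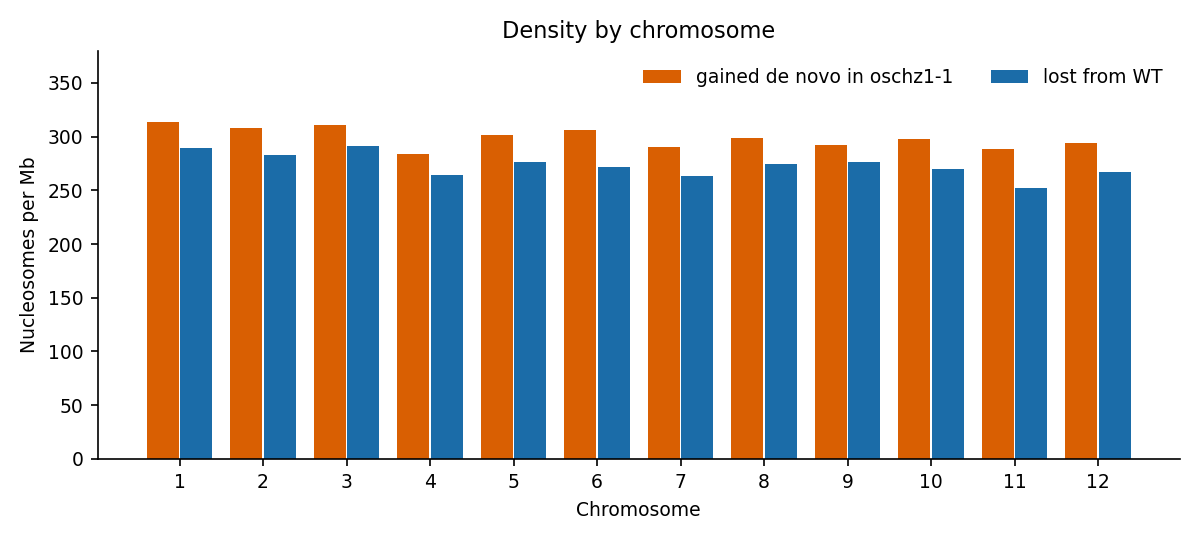
Nucleosomes per Mb on the 12 nuclear chromosomes, gained de novo in *oschz1-1* (orange) and lost from WT (blue). The gained density runs from 284.2 on chromosome 4 to 313.9 on chromosome 1 and is above the lost density on each chromosome.

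On a finer scale, 367 windows of 1 Mb held 138 to 367 gained nucleosomes, with a median of 303, against a median of 276 lost ones, and 307 windows held more gained than lost. The fullest window was at 6 to 7 Mb of chromosome 2, with 367 gained and 300 lost. The emptiest was at 12 to 13 Mb of chromosome 11, with 138 gained and 120 lost, and it also had few *oschz1-1* summits (2187). Relative to the summits present, the window at 14 to 15 Mb of chromosome 4 stood highest, with 113 gained per 1000. The window with 358 gained and 206 lost, at 5 to 6 Mb of chromosome 11, also held 748 of the nucleosomes left out for a WT value of 0.

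Windows rich in gained nucleosomes were rich in lost ones too. Across the 367 windows Pearson's r between the counts was 0.61 and Spearman's rho 0.51. Both counts also rose with the nucleosomes listed, with an r of 0.51 and a rho of 0.34 between gained nucleosomes and *oschz1-1* summits. Between the numbers per 1000 summits of the own map, r was 0.61 and rho 0.55. All windows share the same libraries and depth, and these values are descriptions.

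The WT occupancy of a window was taken as the median WT value of its nucleosomes with a summit in both maps, which hold no member; this measure was picked with the data in view. With it, the gained count per 1000 summits had an r of -0.56 and a rho of -0.49, and the lost count per 1000 summits an r of -0.46 and a rho of -0.41. The raw counts had an r of -0.48 and a rho of -0.37 for gained, and an r of -0.35 and a rho of -0.27 for lost nucleosomes.

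The 5 members with the highest *oschz1-1* value differed in how WT looked at the same place. On chromosome 11 at 4899761 the value was 50.04 in *oschz1-1* and 5.57 in WT, within a gap of 1475 bp, and on the same chromosome at 4847551 it was 43.6 in *oschz1-1* and 9.95 in WT, within 395 bp. On chromosome 2 at 15530581 it was 45.6 in *oschz1-1* and 10.9 in WT, midway in a gap of 360 bp with WT summits 180 bp away on both sides. Fuzziness at the last was 47.1 in *oschz1-1* and 62.7 in WT. This was a single gained nucleosome at close to the usual spacing from both neighbours. Its score was lower in *oschz1-1* than in WT, where no summit was listed.

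The other 2 of the 5 were on chromosome 12 and had strong WT signal. At 20514401 the value was 49.1 in *oschz1-1* and 30.9 in WT, and at 20541931 it was 43.7 in *oschz1-1* and 37.5 in WT. The authors' FDR was 0.071 and 0.433. In these, occupancy was high in both genotypes and the summit alone was missing from the WT list.

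Of the 5 members with the largest log2 ratio among those with a WT value above 0, 4 lay on chromosomes 10 and 11. On chromosome 11 at 4974921 the value was 41.5 in *oschz1-1* and 0.739 in WT (log2 ratio 4.61), and at 4820791 it was 27.3 in *oschz1-1* and 0.370 in WT (4.37). On chromosome 10 at 10255041 it was 37.9 in *oschz1-1* and 1.11 in WT (4.21), and at 10768231 it was 24.2 in *oschz1-1* and 0.370 in WT (4.20). The windows of these members also held nucleosomes left out for a WT value of 0. There were 210 at 4 to 5 Mb of chromosome 11 and 64 at 10 to 11 Mb of chromosome 10. The exception was on chromosome 7 at 28183121, with 26.7 in *oschz1-1* and 0.370 in WT (4.34) in a gap of 550 bp. A WT value of 0.370 was the lowest above 0 among the members.

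The 2 widest gaps that held members were on chromosome 11. A WT gap of 68170 bp on chromosome 11, from 5928011 to 5996181, held 239 *oschz1-1*-only nucleosomes, of which 4 were members and nearly all others had been left out for a WT value of 0. The 4 had *oschz1-1* values of 15.3, 19.5, 25.7 and 10.9 in the order of position, against WT values of 0.739, 0.739, 0.739 and 3.58. The next widest gap, of 55070 bp, held 5 members, and the one named by the rule, at 6554571, had a value of 27.9 in *oschz1-1* and 1.48 in WT. Gaps nearly as wide were filled elsewhere, as in 2 gaps of 54190 and 51390 bp on chromosome 7 and 1 of 44970 bp on chromosome 6 with 1 member each, chosen after their values were seen. In these, the value was 20.6 in *oschz1-1* and 6.65 in WT, 11.8 in *oschz1-1* and 5.94 in WT, and 16.5 in *oschz1-1* and 5.80 in WT. In all, 152 members lay in WT gaps that also held nucleosomes left out for a value of 0, with 41 on chromosome 10 and 111 on chromosome 11. Their median was 15.7 in *oschz1-1* and 3.40 in WT. They are few among the members, and the median gap of 550 bp and the median *oschz1-1* value of 13.5 were the same without them.

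The longest run of gained nucleosomes was on chromosome 11 between WT summits at 4810401 and 4812571, where 8 members stood in 2170 bp. Their *oschz1-1* values were 19.4, 24.0, 18.4, 23.7, 14.8, 17.8, 14.4 and 14.0 from left to right, and their WT values were 9.77, 7.16, 2.84, 8.64, 2.102, 8.16, 1.48 and 4.81. Each was higher in *oschz1-1*, and the steps between them were 115 to 300 bp. This run lies on the stretch of chromosome 11 that also holds 4 of the members named above for a high value or ratio, at 4820791, 4847551, 4899761 and 4974921.

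Runs outside chromosomes 10 and 11 were shorter. On chromosome 3, 7 members stood between WT summits at 25880591 and 25882161, a gap of 1570 bp, with *oschz1-1* values of 10.9 to 19.3 and WT values of 3.47 to 8.64 at steps of 100 to 235 bp. On chromosome 1, 7 members stood in the 1900 bp between 27165811 and 27167711, with 10.9 to 17.9 in *oschz1-1* and 6.42 to 9.69 in WT. All WT values of the run on chromosome 1 were under the floor of 10. Runs of 6 lay on chromosome 12 from 7421231, in 1215 bp, with 11.1 to 15.99 in *oschz1-1* and 1.79 to 7.53 in WT, and on chromosome 6 from 10474821, in 1250 bp, with 10.1 to 15.5 in *oschz1-1* and 4.32 to 7.10 in WT. In the mirror comparison 1 gap of 4735 bp held 23 lost nucleosomes, and no other held more than 6.

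The member nearest to the medians of *oschz1-1* value and gap width on chromosome 1 was at 20031931, with 13.3 in *oschz1-1* and 7.79 in WT, 220 bp from one WT summit and 322 bp from the other, and with a fuzziness of 54.3 in *oschz1-1* and 56.6 in WT. The one on chromosome 4 was at 21168621, with 13.5 in *oschz1-1* and 8.90 in WT, in a gap of 560 bp that held 2 members. The authors' FDR of these differences was 0.218 and 0.302. All positions are coordinates of MSU7, and genes and sequences at them were not analysed here.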

How the data were processed

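The authors trimmed paired MNase-seq reads, mapped them to MSU7 with Bowtie2 2.3.4.1, filtered the alignments by mapping quality and for duplicates with Samtools, and called nucleosomes with DANPOS, whose options are not given in the sources used here. The deposited table has 17 columns, and 0 value columns could not be assigned to a genotype. Occupancy is a signal deposited by the authors, 1 value per merged genotype; how it was scaled between genotypes is not given in the sources used here. Fuzziness is a score deposited by the authors. The FDR of the summit value was taken as the q-value deposited by the authors. Their other columns of p-values, FDR and point values were not used. Summit positions, deposited as coordinates, were taken as they stood, with the control columns as WT.

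Members were found with Python 3.11.15, numpy 2.4.6, pandas 2.3.3 and scipy 1.17.1, and plotted with matplotlib 3.10.9. The search was tested on 60024 simulated nucleosomes at nearly even spacing, in which all 720 gained and 480 lost ones were found. Each planted nucleosome met the rule by design, so this checks the code and not the calling of summits near the floor. The rule, the lists and the alternatives were chosen with earlier results of these data known. Nucleosomes were named by rule: the 5 highest *oschz1-1* values, the 5 largest log2 ratios with WT above 0, the 5 in the widest gaps, the 5 longest runs, and the member nearest to the medians on the chromosomes of highest and lowest density. The span of a chromosome was read from the table. No test was made, as 1 value per genotype was deposited and nucleosomes are not replicates. Sequence and genes of MSU7 were not analysed here.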

Additional observations from a re-analysis of the deposited data

How the results depend on the processing

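No paired analysis was possible because a single merged value stood for both libraries of a genotype, which also kept libraries from being left out one by one. The base composition of members was not run, as no genome of MSU7 was used. A median or percentage counts as moved where it left the 95% binomial interval of the value reported, which covers the counting of nucleosomes only.

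The number of gained nucleosomes follows the distance. At 100 bp there were 218360 gained (585 per Mb) and 207935 lost, with 27.3% increased at the authors' FDR of 0.05, a median gap of 430 bp, an *oschz1-1* value of 13.7 and a fuzziness of 53.7. At 200 bp there were 51264 gained (137 per Mb) and 43389 lost, with 30.1%, 710 bp, 13.1 and 50.9. With a summit value at or above the lower quartile of its map (13.1 in *oschz1-1*, 13.3 in WT), there were 58626 gained (157 per Mb) and 53849 lost, with 44.0%, 530 bp, 15.9 and 51.2. With the zeros of chromosomes 10 and 11 kept, 30.6% were increased. At an FDR of less than 0.01 and 0.001, 8.74% and 0.940% were.

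Other settings were chosen after seeing the data. With a value below 5 in the map without a summit, there were 27879 gained (74.7 per Mb) and 24953 lost, with 67.3%, 570 bp, 12.7 and 52.3. Where the log2 ratio was 1 or more in size, there were 56322 gained (151 per Mb) and 52148 lost, with 58.6%, 550 bp, 15.0 and 51.5. The changes follow from the limits themselves, which select on the quantity or on a neighbouring one. Without chromosomes 10 and 11 there were 96615 gained and 88783 lost. The density of gained nucleosomes was then 301.0 per Mb, against 299.9, and their percentage and medians did not move. Nor did the percentage and medians move without the members in gaps with left-out nucleosomes (111760 gained), or without all zeros (111754 gained and 102157 lost). The ratio of gained to lost nucleosomes was 1.05 to 1.18 over all settings that gave both. The unknown depth limits every count, as the sampling error of a value near the floor of 10 could not be computed.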

Other observations

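The 1816 nucleosomes left out on chromosomes 10 and 11, with a WT value of 0, had a median of 16.2 in *oschz1-1*, above the 13.5 of the gained nucleosomes, and a median fuzziness of 53.1. The median WT gap around them was 35720 bp on chromosome 10 and 29490 bp on chromosome 11. On the sequences not placed on a chromosome, the same rule gave 78 gained and 68 lost nucleosomes on ChrSy and 12 gained and 11 lost on ChrUn. The gained ones had medians of 13.1 in *oschz1-1* and 6.85 in WT on ChrSy, and 13.4 in *oschz1-1* and 7.32 in WT on ChrUn. Of the members on the nuclear chromosomes, 79.98% had an *oschz1-1* summit on a grid of 10 bp, against 86.4% of the nucleosomes with a summit in both maps.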
